A study of Mus musculus with 4 samples.

Results

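The Hox genes were read out in fibroblasts of the developing mouse lung. They were taken as every gene symbol made of Hox, a cluster letter from a to d and a paralog number, which gave 39 of the 23444 symbols in the table: 11 in HoxA, 10 in HoxB, 9 in HoxC and 9 in HoxD. Only their names, not their levels, entered that rule, though it was set with earlier results of these data known. The RNA came from lung cells sorted for Pdgfra, the growth factor receptor whose presence at the surface is a marker of lung mesenchyme. All cells were from wild-type (WT) C57BL6 mice, with 1 library each at embryonic days 16.5 and 18.5 (E16.5 and E18.5) and at postnatal days 7 and 28 (P7 and P28, the former labelled P07). The labels give no treatment, and they do not say how many animals went into a library. With 1 library per age there is no replicate error, so every difference stated here is between libraries, is described by its size and was not tested.

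Hox genes encode transcription factors with a homeodomain, a DNA-binding domain of conserved fold. They lie in 4 clusters that arose by duplication, and genes at the same place in different clusters form a paralog group, numbered from the 3′ end of the cluster. The order along the chromosome mirrors the order of the body regions in which the genes are used: low-numbered groups are active from the hindbrain and foregut backwards, and high-numbered groups near the tail and in the distal limbs. In the lung, Hoxa5 and Hoxb5 are known from mutant mice and explants as mesenchymal regulators of airway branching and alveolar formation. Hox proteins bind DNA together with cofactors of the Pbx, Meis and Pknox families, and their loci are switched on by retinoic acid and held silent by Polycomb complexes.

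In these libraries the Hox transcripts came from the 3′ part of the HoxA and HoxB clusters, and were led by Hoxa5 and Hoxb5. Their paralog Hoxc5 was nearly unread. The homeobox, the 180 coding bases for the homeodomain, was compared between the 3 genes in the GENCODE M21 transcripts, to see how alike they are and how far their transcripts can be told apart. Hoxa5 lies at chr6:52201754-52204587 on the minus strand of GRCm38, Hoxb5 at chr11:96303336-96306121 on the plus strand and Hoxc5 at chr15:102967443-103017429 on the plus strand, and the homeobox is exonic in each. The 3 sequences were not all the same at 56 positions, of which 39 were at the last base of a codon. Hoxa5 and Hoxb5 shared 151 of 180 homeobox bases (83.9%), yet all 60 codons encoded the same amino acids in both. Hoxc5 shared 76.7% of the bases with Hoxa5 and 75% with Hoxb5, with 6 of 60 residues different from either. The transcript with the longest open reading frame was also compared for each gene. For Hoxb5 it held 1895 of 2786 exon bases. The longest stretch of bases common to the compared Hoxa5 and Hoxb5 transcripts was 26, so longer fragments of these differ between the 2.

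The promoters of read and unread genes were also compared. RefSeq windows (build GRCm38.p6) were found for 22 of the 39 genes, 24 windows in all, and the 250 bases before the transcript start were used. The sequences of 5 genes are printed on the strand of the gene: Hoxa2, Hoxa5 and Hoxb4 each reached 5 FPKM (fragment counts scaled to transcript length and library size) in some library, Hoxa9 is the next HoxA gene beyond Hoxa7 and was near 0, and Hoxd4 is the near-unread paralog of Hoxb4. Capitals mark matches on either strand to 4 motifs: TATAAA (the TATA box), CCAAT (the CCAAT box), TGATNNAT (a site shape bound by Pbx with a Hox protein) and AGGTCA (the core bound by retinoic acid and other nuclear receptors).
Hoxa2: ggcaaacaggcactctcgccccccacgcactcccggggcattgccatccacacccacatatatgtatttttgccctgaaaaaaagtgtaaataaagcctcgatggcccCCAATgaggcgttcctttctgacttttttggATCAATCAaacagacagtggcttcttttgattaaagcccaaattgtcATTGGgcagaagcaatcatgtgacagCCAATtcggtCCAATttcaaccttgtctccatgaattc
Hoxa5: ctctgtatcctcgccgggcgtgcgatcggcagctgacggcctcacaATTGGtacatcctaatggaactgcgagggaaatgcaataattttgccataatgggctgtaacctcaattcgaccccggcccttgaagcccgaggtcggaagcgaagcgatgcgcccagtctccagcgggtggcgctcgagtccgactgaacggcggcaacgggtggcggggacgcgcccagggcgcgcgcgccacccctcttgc
Hoxa9: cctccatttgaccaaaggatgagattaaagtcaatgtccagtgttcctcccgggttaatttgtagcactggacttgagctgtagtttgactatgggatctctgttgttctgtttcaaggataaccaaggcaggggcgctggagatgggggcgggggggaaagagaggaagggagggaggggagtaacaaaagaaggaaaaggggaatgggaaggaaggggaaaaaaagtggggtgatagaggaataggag
Hoxb4: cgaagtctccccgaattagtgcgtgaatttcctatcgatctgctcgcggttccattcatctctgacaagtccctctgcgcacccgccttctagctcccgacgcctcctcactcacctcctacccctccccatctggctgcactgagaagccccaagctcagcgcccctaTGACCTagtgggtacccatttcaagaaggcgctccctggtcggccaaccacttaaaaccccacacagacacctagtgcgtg
Hoxd4: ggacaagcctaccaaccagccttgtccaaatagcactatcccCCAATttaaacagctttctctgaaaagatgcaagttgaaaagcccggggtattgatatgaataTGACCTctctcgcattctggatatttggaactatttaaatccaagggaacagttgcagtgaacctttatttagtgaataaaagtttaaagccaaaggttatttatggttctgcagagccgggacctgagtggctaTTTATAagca
These windows are chr6:52164832-52165081 for Hoxa2, chr6:52204588-52204837 for Hoxa5, chr6:52227371-52227620 for Hoxa9, chr11:96318017-96318266 for Hoxb4 and chr2:74721728-74721977 for Hoxd4. The Hoxa2 window held 4 CCAAT matches and 1 TGATNNAT match, Hoxa5 held 1 CCAAT match, Hoxb4 held 1 AGGTCA match and Hoxa9 held none of the 4 motifs. Hoxd4 held 1 match each to the TATA box, the CCAAT box and the receptor core. Hoxa5 held 28 CG dinucleotides at 63.6% GC, Hoxb4 held 14 at 58% and Hoxa2 held 6 at 46.4%, while Hoxa9 held 3 at 49.6% and Hoxd4 held 3 at 40.4%. Over all 24 Hox windows the median GC content was 58.6%, against 52.4% over 32851 windows of all genes, and the median number of CG dinucleotides was 12.5 against 6. The 6 windows of Hox genes that reached 1 FPKM had a median of 16 CG dinucleotides (6 to 28) and the 18 windows of those that did not had 12 (2 to 35), so the ranges overlapped broadly. CCAAT was present in 58.3% of Hox windows and 33.8% of all windows, AGGTCA in 25% and 14.0%, TGATNNAT in 16.7% and 7.68%, and TATAAA in 16.7% and 12.4%. None of the 6 windows of detected genes held TATAAA, and 4 of the 18 others did. A match is only a run of letters, and 1 pair of matches overlapped, in the Hoxd13 window.

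A member was counted as detected when any library reached 1 FPKM, and 12 of the 39 were. In order of age the sum of all 39 was 71.2, 31.3, 129 and 36.8 FPKM, which is 0.0396%, 0.0312%, 0.0663% and 0.0167% of each library's summed FPKM. Detected members numbered 11, 7, 10 and 10 in the same order, while 45.9%, 36.7%, 46.3% and 46.5% of all symbols were at 1 FPKM or more. The E18.5 library therefore had the fewest detected Hox genes and also the fewest detected genes of any kind. FPKM carries no read totals, so the depth of a library is unknown. From the steps between values under 0.1 FPKM, 1 fragment was worth 1.40 times as much FPKM at E18.5 as at E16.5, 0.948 times at P7 and 1.06 times at P28, each the most common ratio among 819 to 1044 symbols and held by 10.2% to 14.5% of them. The E18.5 library was also low for genes in general: the median difference of all 12561 detected symbols was -0.71 on the log2(FPKM + 1) scale between E18.5 and E16.5, and 0.92 between P7 and E18.5. Values are therefore given as deposited and, where the age matters, also after median-ratio scaling, which divides the libraries by 1.15, 0.581, 1.38 and 1.08 in order of age.

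The label of the cells was checked with marker lists. Pdgfra was at 88.7, 95.9, 113 and 188 FPKM in order of age, and all 14 general fibroblast markers were detected, with sums of 2149, 1716, 3567 and 7789 FPKM. Markers of other cell types were read in the libraries as well, and which cells made these transcripts was not tested. All 13 endothelial markers were highest at P7 (sums 40.8, 48.1, 1181 and 290.2), all 14 lung epithelial markers at P28 (37.7, 149, 59.4 and 31185) and all 9 erythroid markers at E18.5 (67.2, 616, 21.7 and 1.65). Of 12 leukocyte markers 10 were highest at E16.5 (1588, 89.2, 20.1 and 5066, the last almost all Lyz2), and 7 of 8 smooth muscle markers were highest at P7 (327, 141, 519.7 and 31.8). Pericyte markers summed to 18.0, 31.2, 65.3 and 24.9, mesothelial markers to 2.21, 11.8, 52.0 and 163, and neural markers to 0.712, 1.33, 32.2 and 7.00. The level of a Hox gene in such bulk RNA depends both on how many cells read it and on how much each cell makes, and these cannot be told apart.

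**Figure D1:**
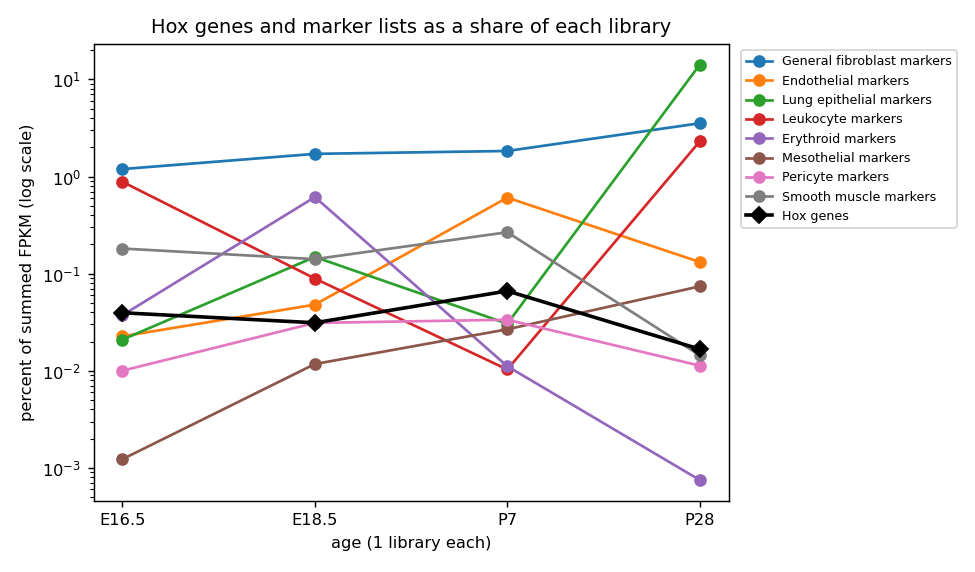
Share of each library's summed FPKM (percent, log axis) taken by the 39 Hox genes (black diamonds) and by 8 marker lists (coloured points), at the 4 ages with 1 library each. The Hox share was 0.0663% at P7, its highest, and 0.0167% at P28, where the lung epithelial list took 14.2%.

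Within HoxA and HoxB, position in the cluster separated detected from undetected genes. The detected genes of these clusters were paralog groups 2 to 7, without a gap: 6 of the 11 HoxA genes (Hoxa2 to Hoxa7) and 6 of the 10 HoxB genes (Hoxb2 to Hoxb7). Hoxb1, at the 3′ end of its cluster, was listed at 0 except for 0.0603 FPKM at P7. Beyond group 7 the levels dropped away. Hoxb8 was at 0.615, 0.362, 0.492 and 0.199 FPKM, the highest of any undetected member, and Hoxa7, at 1.26 FPKM at P28, had the lowest peak of any detected member.

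The 5′ ends of the clusters were at or near 0. In paralog groups 9 to 13, which pattern the lumbar region, the urogenital tract and the distal limbs, 9 of 16 genes were listed at 0 in all 4 libraries and the highest value was 0.378 FPKM. In HoxA and HoxB alone, 4 of 6 such genes (Hoxa10, Hoxa13, Hoxb9 and Hoxb13) were at 0 throughout. Hoxa9 was at 0.0307, 0.0808, 0.0139 and 0.0470 FPKM, and Hoxa11 appeared at E16.5 alone at 0.0273.

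HoxC and HoxD were undetected along their whole length, at every age. In HoxC, which holds groups 4 to 6 as well as posterior genes, the highest value was 0.131 FPKM, for Hoxc4 at E16.5, and 5 of 9 genes (Hoxc9 to Hoxc13) were listed at 0 in all 4 libraries. Hoxc5 was at 0.0423, 0.0791, 0 and 0.0146 FPKM, next to 13.6, 8.96, 27.5 and 9.69 for its paralog Hoxa5. In HoxD no gene was at 0 in every library, but the highest value was 0.378 FPKM, for Hoxd11 at E18.5. The anterior HoxD genes Hoxd1, Hoxd3 and Hoxd4 were each above 0 in a single library, at 0.0732, 0.0854 and 0.0305 FPKM. At the unknown depth these low values cannot be separated from single fragments, and a listed 0 can also be a failed estimate: 1 symbol, Actr3, an actin-nucleating protein of every cell, was at 0 in the P7 library and above 20 FPKM in the other libraries.

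**Figure D2:**
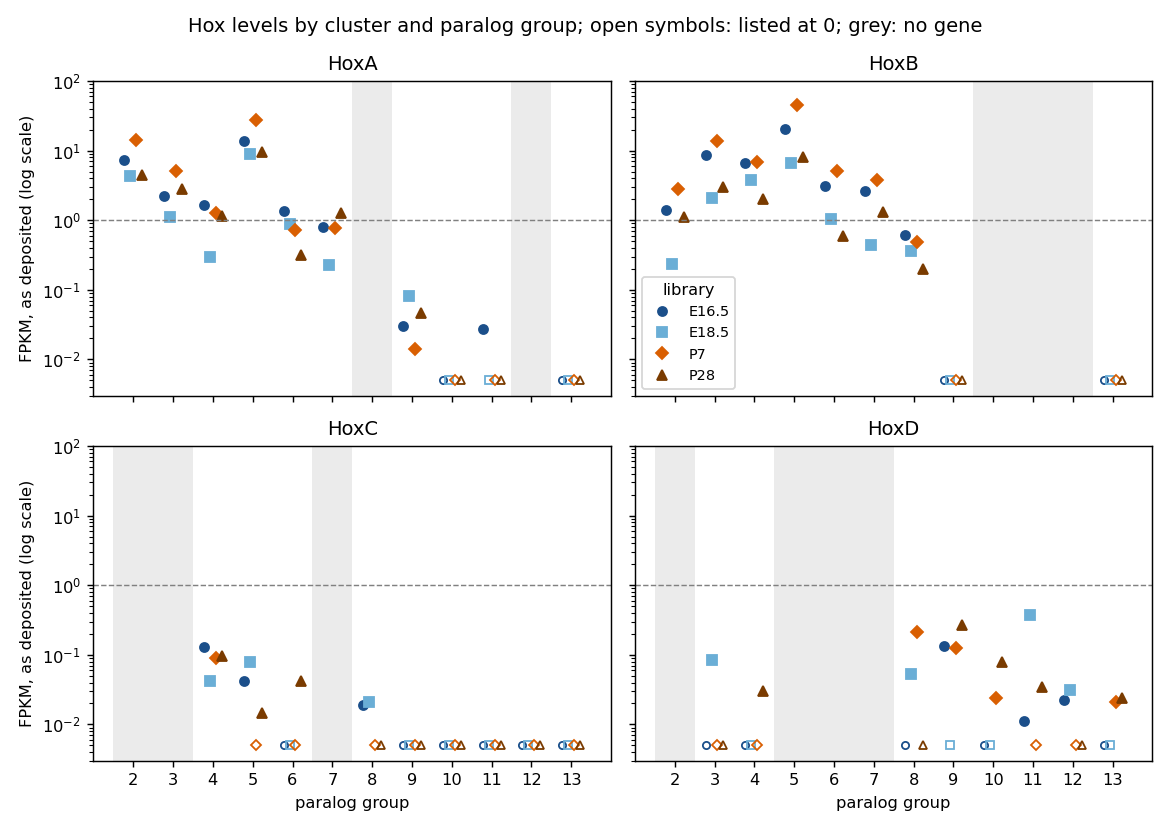
FPKM as deposited (log axis) of the Hox genes of paralog groups 2 to 13 against their group, 1 panel per cluster, with 1 symbol per library; open symbols at the foot are values listed at 0, grey bands are groups with no gene and the dashed line is 1 FPKM. HoxA and HoxB genes of groups 2 to 7 cross the line in at least 1 library, and no HoxC or HoxD gene does.

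On GRCm38 the clusters run over 105 kb (HoxA, chr6:52155590-52260880), 174 kb (HoxB, chr11:96194316-96368256), 116 kb (HoxC, chr15:102921103-103036852) and 96.8 kb (HoxD, chr2:74668310-74765142). Genes next to the clusters were read in part: of 17 flanking genes on the list 14 were found, and 10 of these were detected. Skap2, an adaptor protein gene beside HoxA, was at 26.6, 13.1, 41.3 and 27.4 FPKM, Calcoco1, beside HoxC, ranged from 14.5 to 48.1, and Mtx2, a mitochondrial import gene beside HoxD, from 9.46 to 21.6. The genes of HoxC and HoxD were under 1 FPKM beside these neighbours, but other neighbours of the same clusters were low as well, with at most 2.45 FPKM for Smug1 and 4.08 for Lnp. Beside HoxB, which was read, Skap1, Snx11, Ttll6 and Calcoco2 reached at most 1.42, 1.04, 0.467 and 0.0201 FPKM. The homeobox genes at the 5′ ends, Evx1 and Evx2, were near or at 0 (0.153 FPKM for Evx1 at E16.5, otherwise 0). The Cdx genes, activators of trunk Hox genes, were at 0 in all 4 libraries.

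Paralog group 5 stood at the peak of the profile. Hoxa5 and Hoxb5 together, with the traces of Hoxc5, made up 48.3%, 50.1%, 56.4% and 48.1% of the summed Hox FPKM in order of age. Groups 2, 3 and 4 came next, with 12.3% to 15.1%, 10.5% to 15.7% and 6.46% to 13.2%, followed by groups 6 (2.57% to 6.20%) and 7 (2.16% to 6.95%). Group 8 held at most 1.40%. The shares did not fall steadily from group 5 down to group 2: group 4 was below group 3 at E16.5, P7 and P28.

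Hoxb5, the most abundant Hox gene at E16.5 and P7, was at 20.8, 6.62, 45.4 and 7.98 FPKM in order of age. It stood at percentile 93.6, 89.3, 96.8 and 82.4 of all symbols. The P7 library was the highest and the E18.5 library the lowest. After scaling the values were 18.1, 11.4, 32.9 and 7.40, and the lowest library was P28. Hoxa5, which had the highest level of any Hox gene at E18.5 and P28, was at 13.6, 8.96, 27.5 and 9.69 FPKM, or 11.8, 15.4, 19.9 and 8.98 after scaling. It was highest at P7 on both scales, and its lowest library was E18.5 as deposited and P28 after scaling. Without replicates the order of the pair within a library has no error estimate.

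Hoxa2, which patterns the hindbrain and the arches of the face, had rank 4 among Hox genes at E16.5 and rank 3 at the later ages. It was at 7.32, 4.32, 14.4 and 4.44 FPKM, or 6.39, 7.44, 10.5 and 4.12 after scaling. Hoxb3, a regulator of hindbrain and pharyngeal development, was at 8.55, 2.09, 13.7 and 2.98 FPKM, or 7.45, 3.60, 9.96 and 2.76 after scaling. Both were highest at P7, and the 2 embryonic libraries differed more for Hoxb3 than for Hoxa2. Hoxa3, needed for the thymus and parathyroid, was at 2.21, 1.11, 5.10 and 2.81 FPKM, or 1.92, 1.92, 3.70 and 2.61 after scaling. Of the 7 members that reached 5 FPKM it alone was higher at P28 than at E16.5.

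Hoxb4, studied widely for its effect on blood stem cells, was at 6.70, 3.79, 6.97 and 2.02 FPKM, or 5.84, 6.53, 5.06 and 1.87 after scaling. Its 3 earlier libraries lay close together after scaling and P28 stood below them. Hoxb6, a trunk gene, was at 3.07, 1.05, 5.13 and 0.593 FPKM, or 2.68, 1.80, 3.73 and 0.550 after scaling. It was lowest at P28 on both scales. The remaining 5 detected members peaked between 1 and 5 FPKM: Hoxb7 at 3.73 and Hoxb2 at 2.81 at P7, Hoxa4 at 1.63 and Hoxa6 at 1.34 at E16.5, and Hoxa7 at 1.26 at P28.

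**Figure D3:**
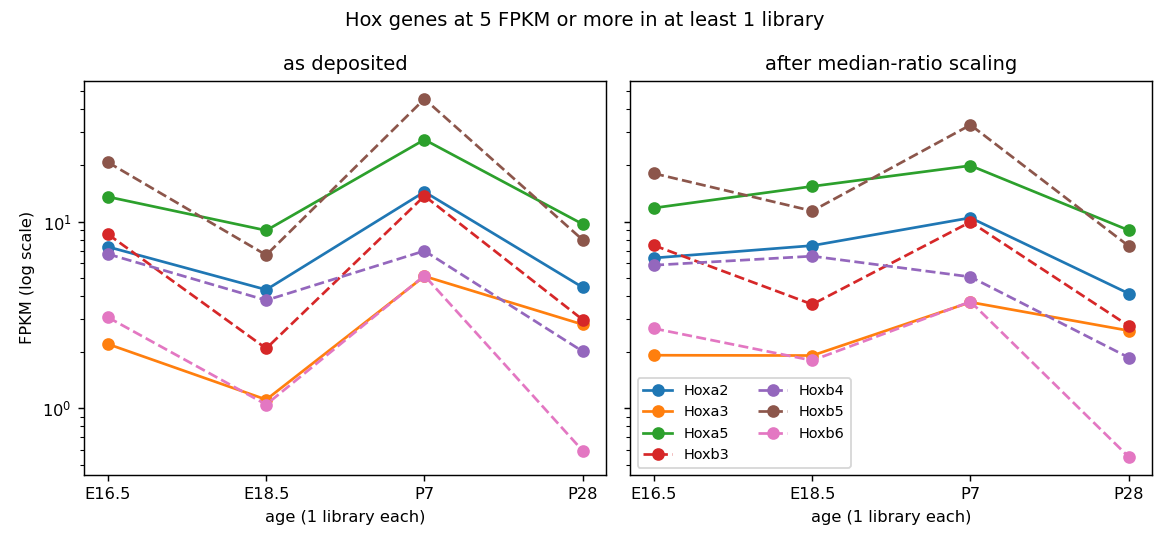
FPKM (log axis) of the 7 Hox genes that reached 5 FPKM in any library, by age, as deposited (left) and after median-ratio scaling (right); solid lines are HoxA genes, dashed lines HoxB genes, and each point is 1 library. Hoxb5 reaches 45.4 FPKM at P7 as deposited and 32.9 after scaling. The P28 points lie below the P7 points for all 7 genes on both scales. Hoxa3 and Hoxb6 reached 5 FPKM at P7 alone (5.10 and 5.13), so their order as deposited follows from the choice of genes.

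Of the 12 detected members, 9 were highest in the P7 library as deposited, against 42.3% of all detected symbols, and 8 after scaling, against 19.5%. The members highest elsewhere after scaling were Hoxa4 (E16.5), Hoxa6 and Hoxb4 (E18.5) and Hoxa7 (P28). As deposited, 9 of the 12 were lowest at E18.5 and 3 at P28. After scaling, 5 were lowest at E18.5 and 7 at P28, so which library was lowest depended on the scale. Without the E18.5 library the number highest at P7 was again 9 as deposited and 8 after scaling. The P7 library is also the one in which endothelial and smooth muscle markers were highest, and their part in the Hox values was not tested.

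Differences between libraries were counted when they reached 1 on the log2(FPKM + 1) scale (2-fold) with at least 5 FPKM in the higher library. Comparisons that have a library in common are not independent: E16.5 and P7 enter 3 of the 5 each, and E18.5 and P28 enter 2 each. From E16.5 to E18.5, 0 of the 12 detected members were higher and 2 were lower, Hoxb3 (by -1.63) and Hoxb5 (by -1.51). Among all detected symbols 1.11% were higher and 22.6% lower. After scaling none of the 12 was called in either direction (all symbols 4.49% and 5.84%). The median difference of the 12 was -0.83 against -0.71 for all symbols, and -0.34 against -0.03 after scaling. On this scale the deposited median of the Hox genes was thus close to that of genes in general, and the medians lay further apart after scaling. With a pseudocount of 0.1 in place of 1 the deposited median of the 12 was -1.46. Between the same 2 libraries leukocyte markers were lower and erythroid markers higher at E18.5, and their part was not tested.

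From E18.5 to P7, 6 of the 12 were higher and 0 lower: Hoxb5 by 2.61, Hoxb3 by 2.25, Hoxb6 by 1.58, Hoxa2 by 1.54, Hoxa3 by 1.53 and Hoxa5 by 1.51. Among all symbols 33.3% were higher and 1.52% lower. After scaling 2 stayed past the threshold, Hoxb5 at 1.45 and Hoxb3 at 1.25, and 0 were lower (all symbols 7.20% and 5.88%). The median of the 12 was 1.53 against 0.92, and 0.57 against 0.04 after scaling. Hoxb2 and Hoxb7 differed by 1.12 and 1.07 after scaling but were under 5 FPKM, while all 6 HoxA members differed by less than 1. Hoxa6 and Hoxb4 were lower at P7 after scaling, by -0.72 and -0.31. The 13 endothelial markers were all higher at P7 in this comparison on both scales, and their part in the result was not tested.

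From P7 to P28, 0 of the 12 were higher and 6 were lower: Hoxb5 by -2.37, Hoxb6 by -1.95, Hoxb3 by -1.89, Hoxa2 by -1.50, Hoxa5 by -1.41 and Hoxb4 by -1.40. Among all symbols 5.95% were higher and 9.57% lower. After scaling 0 were higher and 5 lower (all symbols 7.42% and 5.21%), with Hoxb5 at -2.01, Hoxb3 at -1.54, Hoxa2 at -1.16, Hoxb4 at -1.08 and Hoxa5 at -1.07. Hoxb6 was at -1.61 after scaling but no longer reached 5 FPKM at P7. The median of the 12 was -1.22 against -0.23 for all symbols, and -0.91 against 0.03 after scaling. This was the comparison in which the members stood furthest from the median of all symbols. Hoxa7 was higher at P28 by 0.36, and Hoxa4 differed by -0.09. The lung epithelial markers took 14.2% of the P28 library's FPKM, and markers of epithelial, endothelial, leukocyte and erythroid cells together 16.6%, against 0.659% at P7. The 2.30% of the leukocyte list at P28 was almost all Lyz2 (5062 of 5066 FPKM). With the listed genes of those 4 cell types taken out of the total, 6 members were again lower. This only rescaled each library, by too little to undo any of the 6 calls. It therefore could not decide the part of those cells. Endothelial and smooth muscle markers were lower at P28 too (13 of 13 and 7 of 8 as deposited), and their part in the result was not tested.

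Between the ends of the course, E16.5 and P28, 3 of the 12 were lower at P28 on both scales and 0 were higher: Hoxb4 by -1.35, Hoxb5 by -1.28 and Hoxb3 by -1.26 as deposited, and by -1.25, -1.19 and -1.17 after scaling. Among all symbols 9.51% were lower and 10.1% higher as deposited, and 7.94% and 10.4% after scaling. All 3 are HoxB genes, and Hoxb6 differed by -1.35 as well but from a level under 5 FPKM. The HoxA members ranged from -0.84 (Hoxa6) to 0.33 (Hoxa7). The median of the 12 was -0.63 against -0.03, and -0.55 against 0.03 after scaling. The median difference of all symbols between these 2 libraries was thus small on both scales, and the 3 calls were the same on both. With a pseudocount of 5 in place of 1 none of the 3 passed the threshold (-0.76 for Hoxb3, -0.74 for Hoxb4 and -0.99 for Hoxb5). Between these libraries 10 of 11 detected leukocyte and 4 of 8 smooth muscle markers were lower at P28, and 13 of 14 epithelial and 12 of 13 endothelial markers were higher. Their part in the result was not tested.

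Between E16.5 and P7, Hoxb5 was the single member called, higher at P7 by 1.09, and 0 were lower (all symbols 8.84% higher and 3.75% lower). After scaling none of the 12 was called (all symbols 6.02% and 4.72%). The medians were 0.61 against 0.16, and 0.37 against -0.03 after scaling. The members' levels at P7 and E16.5 thus differed by less than 1 on the log2 scale for 11 of 12 members as deposited, and this comparison was chosen with the level at P7 in view.

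**Figure D4:**
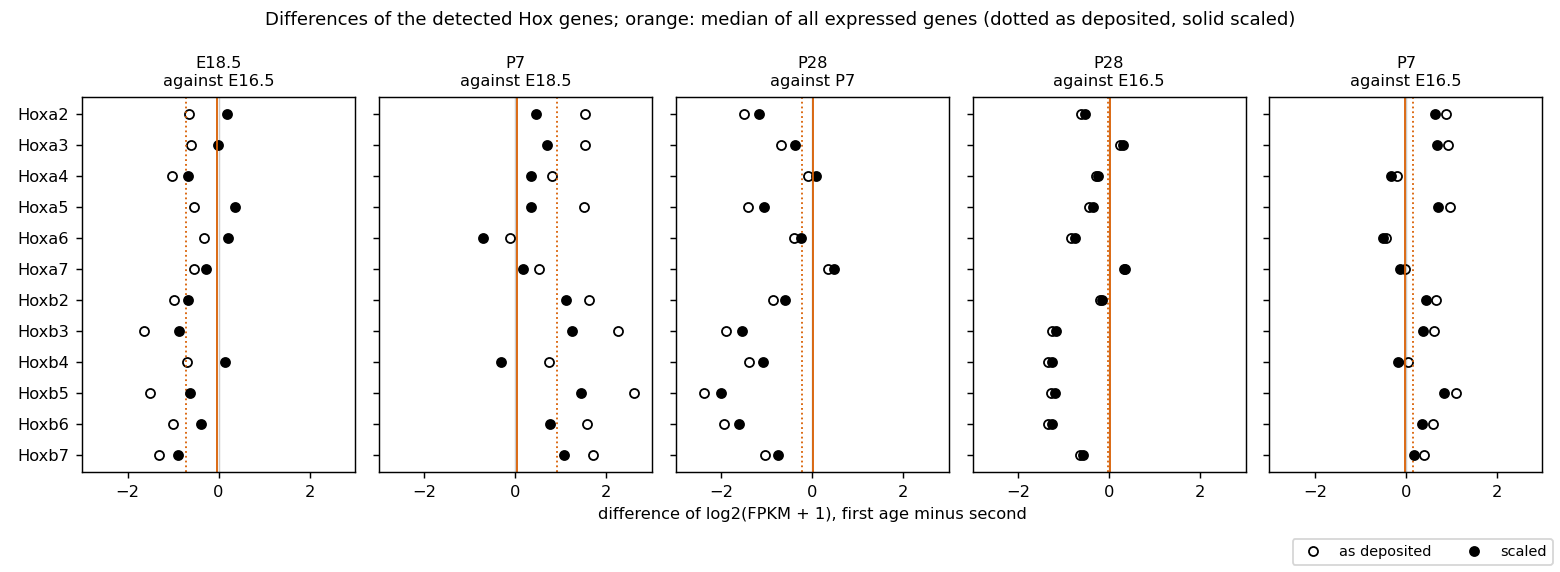
Difference of log2(FPKM + 1), first age minus second, for the 12 detected Hox genes in the 5 comparisons, as deposited (open circles) and after median-ratio scaling (filled circles); orange lines mark the median of all 12561 detected symbols as deposited (dotted) and scaled (solid). In P28 against P7 the Hoxb5 points are at -2.37 and -2.01 and the Hoxa7 points are to the right of 0.

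The balance between the clusters does not depend on the scale, since it is taken within a library. HoxB genes made up 61.4%, 46.6%, 60.7% and 43.9% of the summed Hox FPKM in order of age, and HoxA genes 38.0%, 51.2%, 39.0% and 54.4%. HoxB led in the E16.5 and P7 libraries and HoxA in the E18.5 and P28 libraries. Hoxb5 alone was 29.2%, 21.2%, 35.2% and 21.7% of the sum, and without it the HoxB share was 45.5%, 32.3%, 39.3% and 28.4%. Without both Hoxb5 and Hoxa5 it was 62.3%, 50.8%, 58.5% and 42.8%, in the same order of libraries as with them.

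The paralogs were compared one by one as the ratio of the HoxB to the HoxA gene. Of 6 pairs in groups 2 to 7, 5 had a lower ratio at E18.5 than at E16.5, 5 a higher ratio at P7 than at E18.5, and 5 a lower ratio at P28 than at P7. Hoxb5 to Hoxa5 was 1.53, 0.738, 1.65 and 0.823 in order of age. Hoxb3 to Hoxa3 was 3.87, 1.88, 2.69 and 1.06, and Hoxb7 to Hoxa7 was 3.27, 1.95, 4.89 and 1.03. The pairs of groups 3 and 7 were thus near equal at P28 but not at P7. Hoxb6 to Hoxa6 was 2.29, 1.20, 7.15 and 1.91, and Hoxb4 to Hoxa4 was 4.11, 12.7, 5.43 and 1.77, the exception at E18.5, where Hoxa4 was at 0.297 FPKM. Group 2 ran the other way, with Hoxb2 to Hoxa2 at 0.193, 0.0536, 0.194 and 0.247: the HoxA gene was the higher one in every library, and the ratio was not lower at P28. Levels well under 1 FPKM enter several of these ratios (Hoxb2, Hoxa4, Hoxa7 and Hoxb7 at E18.5, Hoxa6 at P28). Among pairs with both members at 1 FPKM or more in both libraries, 2 of 2 had a lower ratio at E18.5 than at E16.5 (groups 3 and 5), 2 of 2 a higher ratio at P7 than at E18.5, and 3 of 4 a lower ratio at P28 than at P7 (groups 3, 4 and 5, with group 2 the exception). The ratios of successive ages share a library, so the 3 counts are not independent.

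**Figure D5:**
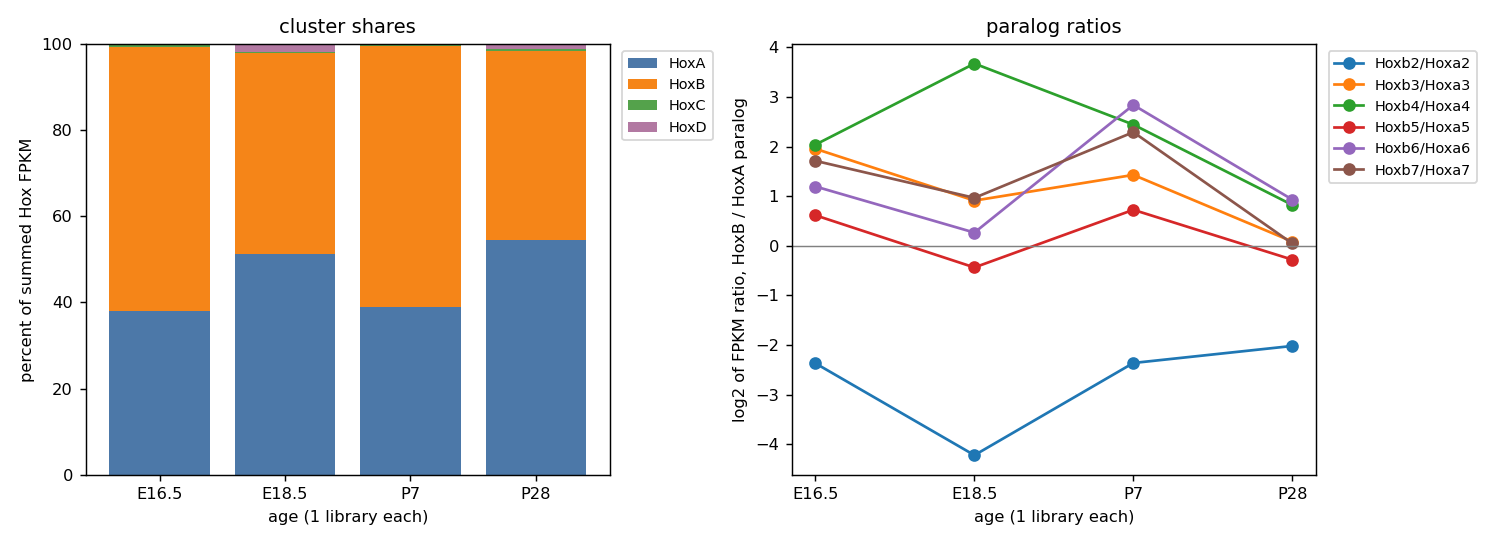
Left, share of the summed Hox FPKM (percent) held by each cluster in each library; right, log2 of the FPKM ratio of the HoxB to the HoxA paralog for 6 pairs, by age, with 1 library per point and 0 meaning equal levels. HoxB holds 61.4% and 60.7% at E16.5 and P7 and 46.6% and 43.9% at E18.5 and P28, and Hoxb2/Hoxa2 is the one pair below 0 in all 4 libraries.

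The likeness of the sequences bears on whether fragments can be assigned, which was not tested. Between the HoxA and HoxB members of a detected group the homeobox bases were 74.4% (group 2) to 93.9% (group 3) identical, and 0 to 4 of the 60 residues differed. Over the transcript of each gene with the longest open reading frame, the longest run of bases shared by such a pair was 13 to 33. Between any 2 detected members it was at most 52 (Hoxa6 and Hoxb4). Exon bases outside these transcripts were not compared. Transcripts also overlap. By GENCODE M21, 6 of the 12 detected members share exon bases with an antisense transcript, and the sources used here do not say that strand was used in counting. The largest overlap was Hoxb3 with Hoxb3os, 2250 bases or 52.9% of the Hoxb3 exons, and Hoxb2 shared 27.3% of its exon bases with the same transcript. Hoxb5 shared 3.59% with Hoxb5os, and Hoxa5 shared none. Hoxa2 and Hoxa3 overlap the transcript Gm28308 on the same strand over 15.0% and 8.01% of their exon bases. Levels of Hoxb2 and Hoxb3 may therefore include antisense fragments, which was not tested.

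MicroRNA genes lie between the Hox genes, miR-10 beside group 4 and miR-196 beside group 9, and several of their known targets are Hox transcripts. Their mature sequences are given from RefSeq (GRCm38.p6), 5′ to 3′, with the seed, bases 2 to 8, in capitals, because the family members share it across clusters.
miR-10a-5p: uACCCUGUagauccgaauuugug
miR-10b-5p: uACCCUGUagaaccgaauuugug
miR-196a-5p: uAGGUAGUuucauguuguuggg
miR-196b-5p: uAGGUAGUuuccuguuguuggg
The miR-10 pair has the seed ACCCUGU, with miR-10a in HoxB (chr11:96317186-96317208, plus strand) and miR-10b in HoxD (chr2:74726074-74726096, plus strand). The miR-196 pair has the seed AGGUAGU, with miR-196a-1 in HoxB (chr11:96265187-96265208, plus strand) and miR-196b in HoxA (chr6:52230129-52230150, minus strand), where the hairpin lies within an annotated exon of Hoxa9. The deposited table listed the Mir10a hairpin gene at 20.4 FPKM and Mir196b at 376 FPKM at E18.5 and at 0 in the other libraries, and Mir10b and Mir196a-1 at 0 in all 4. The hairpins are 110 and 85 bases long. Hoxa9, around Mir196b, was at 0.0808 FPKM in the same library. These values were given for genes shorter than a usual RNA-seq fragment and say nothing of the mature microRNAs. Of the longer noncoding RNAs, Hotair, transcribed from HoxC, did not exceed 0.0423 FPKM, and Mira, from HoxA, was at 1.03, 0.487, 1.00 and 1.64.

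The TALE-class cofactors with which Hox proteins bind DNA summed to more FPKM than the 39 Hox genes in every library. Of the 9 listed, 8 were detected, with sums of 128, 50.3, 136 and 112 FPKM. Pbx3 was at 19.9, 18.8, 18.1 and 6.72 FPKM and Meis1 at 19.4, 9.60, 17.4 and 9.03. As deposited, Pbx3 was low in the P28 library alone. Between P28 and E16.5, 1 of the 8 was higher, Pknox2 (3.57 to 13.4 FPKM), and 2 were lower, Meis1 and Pbx3 (all symbols 10.1% and 9.51%). After scaling 1 was higher and 1 lower, Pbx3 (10.4% and 7.94%). Between P28 and P7, 0 were higher and 2 lower (Pbx3 and Pknox1), and after scaling 1 was higher (Pknox2) and 0 lower, so the direction of the calls for this list depended on the scale (all symbols 5.95% and 9.57% as deposited, 7.42% and 5.21% after scaling). Between P7 and E18.5, 5 of the 8 were higher as deposited, and 1 higher and 1 lower after scaling (all symbols 33.3% higher as deposited, 7.20% and 5.88% after scaling).

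The Polycomb and MLL complexes hold Hox genes silent or active through histone methylation. Of 22 Polycomb subunits listed, 21 were detected, and between P28 and E16.5, 3 were higher (Cbx7, Ezh1 and Phf1) and 3 lower (Ezh2, Mtf2 and Rbbp7). After scaling 2 were higher and 2 lower. Among all symbols 10.1% were higher and 9.51% lower, and 10.4% and 7.94% after scaling, so these counts were near the background. The paired methyltransferases differed in opposite directions between these libraries: Ezh2, the form of dividing cells, was at 35.4, 7.21, 21.6 and 4.64 FPKM, and Ezh1, the form of resting cells, at 3.18, 2.14, 6.35 and 9.07. From P7 to P28, 1 was higher and 2 lower, and after scaling 0 and 1, the latter Ezh2 (all symbols 5.95% and 9.57%, and 7.42% and 5.21% after scaling). Of 12 MLL-complex and demethylase genes all were detected, and between P28 and E16.5 only Psip1, which tethers MLL to chromatin, was called, at 26.0, 13.5, 18.8 and 6.50 FPKM, lower at P28 on both scales.

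Of 17 listed genes of retinoic acid synthesis, breakdown and reception, 12 were detected, and 4 were higher and 0 lower at P28 than at E16.5 on both scales (all symbols 10.1% and 9.51% as deposited, 10.4% and 7.94% after scaling). Aldh1a1 and Aldh1a2, which make retinoic acid, were at 8.24, 29.6, 8.21 and 589 FPKM and at 2.30, 2.01, 19.2 and 47.7. Dhrs3, which turns retinal back to retinol, was at 8.40, 4.08, 13.7 and 48.5, and Crabp1, a binding protein, at 2.32, 0.380, 1.31 and 7.98. The same 4 were higher at P28 than at P7 on both scales, while Rara and Rdh10 were lower as deposited and Rdh10 alone after scaling (among all symbols 5.95% and 9.57% in the deposited values, 7.42% and 5.21% once scaled). The lung epithelial and mesothelial markers were also highest at P28, and their part in these values was not tested. The receptor Rara was at 15.0, 6.04, 20.8 and 8.65 FPKM. The Cyp26 enzymes, which break retinoic acid down, were under 1 FPKM except Cyp26b1, at 3.17 at P7 and 2.03 at P28.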

How the data were processed

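RNA-seq of 4 libraries, 1 per age, was deposited by the authors as FPKM per gene, per the file headers. Per the submitters' processing notes, TopHat, TopHat2 2.0.9, GRCm38 and mm10 were used. The program behind FPKM was not given in the sources used here. Per the labels' protocols, libraries were made with Nextera XT from total RNA and read as paired ends. The 23931 entries were summed by symbol (258 symbols had several), leaving 23444. Differences are of log2(FPKM + 1). A difference counted when it was at least 1 with 5 FPKM or more in the higher library. Median-ratio and upper-quartile scaling, other pseudocounts, minimums and detection limits were tried. Values were summed or compared with Python 3.11.15, numpy 2.4.6 and pandas 2.3.3, and figures made with matplotlib 3.10.9. The code was tested on simulated data. With 1 library per age no test was possible and no p-value is given, and FPKM holds no read totals. Members at 5 FPKM or more are given in every library, those from 1 to 5 by their peak, and others are mostly counted. Of the other gene lists the 3 most abundant members or those called could be named. Several low members, and single genes of other lists, were named outside that rule after their values were seen. The members and lists were chosen with earlier results of these data known. Coordinates, transcripts and homeoboxes are from GENCODE M21 on GRCm38, where all 39 genes matched. The homeobox was located in the longest open reading frame. Promoters and microRNAs are from RefSeq. A few genes and sequences are not reported here.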

Additional observations from a re-analysis of the deposited data

How the results depend on the processing

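No difference that passed the threshold changed sign under the alternatives, though smaller ones did: for E18.5 against E16.5, 0 of the 12 detected members were above 0 as deposited and 4 after median-ratio scaling. Counts, medians and shares moved by over 1.5-fold in 24 cases, all given here, and single-gene differences in 59. Under median-ratio or upper-quartile scaling the lower members at E18.5 against E16.5 went from 2 to 0, the higher at P7 against E18.5 from 6 to 2, and the higher at P7 against E16.5 from 1 to 0 (0 also when scaled without the E18.5 library). The median for P7 against E18.5 went from 1.53 to 0.57 and 0.48 under these scalings. A pseudocount of 5 gave 1 lower member for E18.5 against E16.5, a median of 0.70 for P7 against E18.5, a median of -0.62 for P28 against P7 (in place of -1.22), 0 lower for P28 against E16.5 (in place of 3) and 0 higher for P7 against E16.5. A pseudocount of 0.1 gave a median of -1.46 for E18.5 against E16.5 (in place of -0.83) and 3 higher for P7 against E16.5. With no minimum 4 members were lower at E18.5. With a minimum of 20 FPKM the counts were 1 lower at E18.5 against E16.5, 2 higher at P7 against E18.5, 2 lower at P28 against P7 and 1 lower at P28 against E16.5, since fewer members could pass. A detection limit of 2 FPKM left 6 members at P28 in place of 10. Without Hoxb5 the HoxB share was 39.3% at P7 and 28.4% at P28. The cause of the shifts with scale was not tested. Leaving out a replicate was not possible with 1 library per age. The alternatives without the E18.5 library and without markers of other cell types, and the ratios over detected pairs, were chosen after seeing the data. Depth is unknown, so levels well under 1 FPKM cannot be ranked.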
